A study of Mus musculus with 4 samples.

Results

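The genes of the retinoic acid receptors (Rara, Rarb and Rarg) and of the retinoid X receptors (Rxra, Rxrb and Rxrg) were examined for open chromatin in fetal female germ cells with or without a deletion of Gata2, which encodes a transcription factor. These 6 genes were listed by name, out of 21631 protein-coding genes of the mouse. A peak belonged to a gene if it lay within 1 kb of the gene body or, failing that, if the nearest end of a coding gene within 100 kb was that of the gene. By this rule the 6 genes held 33 of the 44139 peaks of Gata2cKO cells and 37 of the 49394 peaks of Gata2WT cells. Gata2cKO embryos carried a floxed Gata2 deleted by Cre under the control of Prdm1, which is active in the germ cell lineage from its founding, and Gata2WT embryos came from the same cross. In that cross every mother was Gata2flox/flox, so embryos of both groups inherited a floxed allele from her, and the sources used here do not give the full genotype of the Gata2WT embryos. All embryos were female, of the C57BL/6J strain and at E14.5 of gestation. Ovarian cells were released with trypsin, SSEA1-positive cells (germ cells carry this surface sugar) were taken with magnetic beads, and about 10000 cells entered each library for ATAC-seq, a method that cuts and tags open DNA with a transposase. The labels call the cells ovarian cells, the purity of the enriched cells is not given, and neither is the deleted part of Gata2, so the peaks do not check the genotype. Each genotype had 2 libraries, which the authors combined into 1 peak list, so the lists hold no values of single libraries and no replicate error, and no test between genotypes was made.

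Retinoic acid, made from vitamin A, acts through RAR-RXR pairs that sit on DNA at retinoic acid response elements, which are repeats of a short half-site. Without ligand the pair holds corepressors at the gene, and ligand exchanges these for coactivators. RAR proteins bind all-trans retinoic acid, whereas RXR proteins serve as the shared partner of RAR and of several other nuclear receptors, such as the thyroid hormone, vitamin D and PPAR receptors. In the fetal ovary retinoic acid is known for inducing Stra8, a gene of meiotic entry, in germ cells.

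The start regions that matter for the results are shown here, each from 250 bases before to 50 bases after a start site of the RefSeq table (GRCm38.p6), 5′ to 3′ on the strand of the gene. Capitals mark words searched on both strands. The retinoid half-sites were the word AGGTCA, the related word AGTTCA, the related word GGGTCA and, as the last of these, the word GGTTCA. The GATA words were the word AGATAA, the related word AGATAG, the related word TGATAA and, as the last of these, the word TGATAG. Half-sites also lie inside the repeats described with Rarb. The Rarb region is shown for its paired half-sites, the first and second Rxrg regions because only the second differed between the lists, the inner Rarg region for its GATA word, and the first Rxra region because neither list had a peak on it.
Rarb, chr14:16575427-16575726, minus strand: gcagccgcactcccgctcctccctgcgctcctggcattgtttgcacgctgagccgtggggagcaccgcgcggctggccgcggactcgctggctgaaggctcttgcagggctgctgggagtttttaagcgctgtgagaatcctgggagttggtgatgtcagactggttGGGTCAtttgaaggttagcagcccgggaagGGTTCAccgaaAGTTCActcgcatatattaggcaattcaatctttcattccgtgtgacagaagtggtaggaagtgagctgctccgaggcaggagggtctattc
Rxrg first start, chr1:167598112-167598411, plus strand: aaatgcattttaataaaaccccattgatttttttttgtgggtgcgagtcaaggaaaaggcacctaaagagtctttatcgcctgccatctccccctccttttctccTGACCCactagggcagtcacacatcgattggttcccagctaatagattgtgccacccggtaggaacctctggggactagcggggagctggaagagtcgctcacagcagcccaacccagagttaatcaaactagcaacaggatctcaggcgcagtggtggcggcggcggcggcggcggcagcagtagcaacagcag
Rxrg second start, chr1:167618015-167618314, plus strand: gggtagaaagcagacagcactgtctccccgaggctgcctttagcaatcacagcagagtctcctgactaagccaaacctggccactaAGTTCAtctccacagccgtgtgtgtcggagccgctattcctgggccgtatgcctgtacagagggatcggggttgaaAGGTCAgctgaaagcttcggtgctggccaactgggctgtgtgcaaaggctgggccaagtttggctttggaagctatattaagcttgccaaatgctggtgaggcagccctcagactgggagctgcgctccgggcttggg
Rarg inner start, chr15:102246451-102246750, minus strand: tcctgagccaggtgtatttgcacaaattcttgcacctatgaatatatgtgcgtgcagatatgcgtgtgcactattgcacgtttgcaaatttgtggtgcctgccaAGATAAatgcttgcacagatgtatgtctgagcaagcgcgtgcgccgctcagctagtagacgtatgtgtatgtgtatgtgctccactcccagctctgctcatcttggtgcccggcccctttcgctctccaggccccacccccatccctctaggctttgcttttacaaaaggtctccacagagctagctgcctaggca
Rxra first start, chr2:27676951-27677250, plus strand: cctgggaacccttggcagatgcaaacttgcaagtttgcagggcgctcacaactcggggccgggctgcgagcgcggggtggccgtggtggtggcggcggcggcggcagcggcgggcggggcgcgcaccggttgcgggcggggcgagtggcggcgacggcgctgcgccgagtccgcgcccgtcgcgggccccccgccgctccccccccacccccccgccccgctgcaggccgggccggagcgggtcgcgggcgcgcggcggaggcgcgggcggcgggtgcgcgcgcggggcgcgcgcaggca

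The strength of a peak is given as −log10 q, the authors' q-value from the peak caller after a change of scale, so that a larger value means a summit that stands out more from the local background around it. The median summit pileup, the number of stacked fragments at the top of a peak, was 19 in both, and the genome background was 2.01 fragments in Gata2cKO and 2.19 in Gata2WT. No peak in either list had a p above 0.001, taken here as the authors' threshold, and at the genome background 8 fragments were enough to pass it, so a peak missing from a list shows only that the site fell short of the threshold there. A weaker site can come from fewer cells with the site open or from less opening in each cell, and these cannot be told apart in pooled cells. Of 10 germ cell marker genes, 8 had a gene-end peak (within 1 kb of the first or last annotated base) in both lists, and Nanog had one in Gata2cKO alone and Pou5f1 in Gata2WT alone. Gene-end peaks in both lists were also found at 5 of 8 supporting cell markers, 2 of 5 stromal, 3 of 5 endothelial and 2 of 6 blood markers, while Dcn, Emcn, Ptprc and Hba-a1 had no peak in either list. Of all coding genes, 62.8% carried gene-end peaks under both genotypes, 1.3% under Gata2cKO alone and 2.29% under Gata2WT alone. With a feature this common, the marker counts do not measure how pure the cells were. Over all peaks, 19.7% of the Gata2cKO list and 28.5% of the Gata2WT list were found in that list alone. The supporting cell markers had 3 of 22 peaks in the Gata2cKO list alone and 17 of 36 in the Gata2WT list alone, and the germ cell markers had 11 of 46 in Gata2cKO and 12 of 47 in Gata2WT. Stromal markers had 1 of 17 in Gata2cKO and 5 of 20 in Gata2WT, endothelial markers 2 of 18 in Gata2cKO and 5 of 20 in Gata2WT, and blood markers 1 of 6 in each list. The part of such cells in the receptor gene counts was not tested.

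Most open sites of the receptor genes were found in both genotypes. In the Gata2cKO list 27 of 33 receptor gene peaks overlapped a Gata2WT peak and 6 were found in that list alone (18.2%, 95% Wilson interval 8.61 to 34.4), against 19.7% of all Gata2cKO peaks. In the Gata2WT list 27 of 37 were shared and 10 were found in that list alone (27.0%, 15.4 to 43.0), against 28.5% of all Gata2WT peaks. Both shares were near those of all peaks, and the intervals cover counting error only. Counted as peak and gene pairs, all coding genes had 18.7% in Gata2cKO and 27.0% in Gata2WT. The order of the lists turned at a stricter threshold, though on few peaks, and whether this exceeds counting error was not tested. Of receptor gene peaks with a −log10 q of 5 or more, 3 of 19 were in Gata2cKO alone (15.8%, against 4.74% of all such Gata2cKO peaks) and 1 of 20 in Gata2WT alone (5%, against 7.61%). Rxra held 2 of these 3 Gata2cKO peaks. The 27 shared sites matched 1 to 1, with summits 4 to 315 bp apart and a median of 44 bp, against 47 bp for the 35626 overlapping pairs of the whole lists. By family, the RAR genes had 3 of 18 Gata2cKO peaks and 4 of 19 Gata2WT peaks in 1 list alone, and the RXR genes had 3 of 15 in Gata2cKO and 6 of 18 in Gata2WT.

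**Figure D1:**
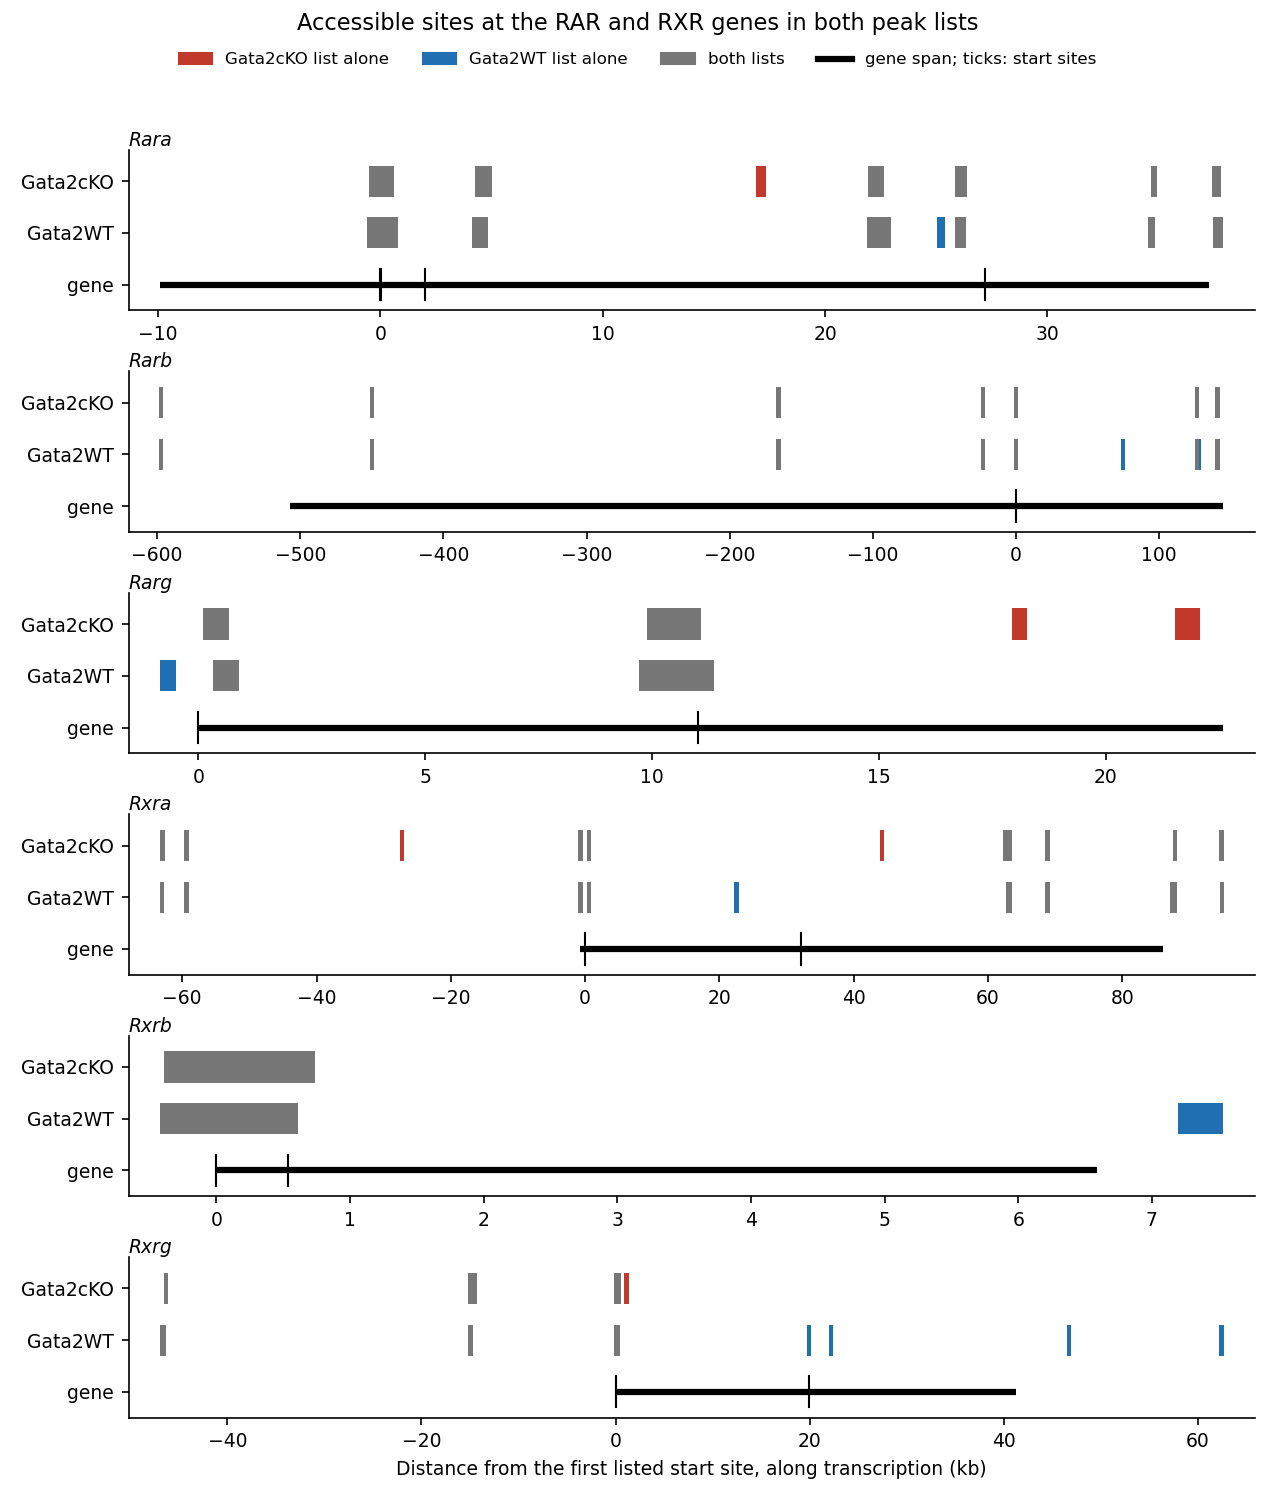
Peaks of the 6 receptor genes along each gene, with the distance from the first start site of the RefSeq table in kb (negative is upstream); red and blue bars are peaks of the Gata2cKO and of the Gata2WT list alone, grey bars are shared, and very narrow peaks are drawn at a minimum width. Grey bars make up 27 of 33 peaks in the upper Gata2cKO rows and 27 of 37 in the lower Gata2WT rows, and the right part of Rxrg has peaks in the Gata2WT row alone.

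At the start sites, 7 of the 13 start regions of these genes carried a peak in both lists, against 57.4% of 21045 start regions of coding genes. None carried a peak in Gata2cKO alone (1.35% of coding start regions) and 1, the second start of Rxrg, carried one in Gata2WT alone (2.21%). Regions were counted 1 by 1, although the first 2 Rara regions lay under 1 peak in each list, as did the 2 Rxrb regions. The 5 regions without a peak in either list were the 2 inner starts of Rara, the first start of Rarg and both starts of Rxra. Their base composition varied. CpG counts give how often C is followed by G. The second Rxra start had 1 CpG and the inner Rara starts had 5 and 6, and coding start regions with under 10 CpG carried a peak in 15.0% of cases in Gata2cKO and 16.2% in Gata2WT. The first Rarg start had 12, and regions with 10 to 19 CpG carried a peak in 85.1% of cases in Gata2cKO and 86.8% in Gata2WT. The first Rxra start had 55 CpG and a GC share of 83%. Of the 282 coding start regions with a GC share of at least 80%, 80.5% carried a peak in Gata2cKO and 77.3% in Gata2WT.

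Counts by gene end differed from counts by start region. Peaks at an end were found in both lists for 5 of the 6 genes, against 62.8% of all coding genes, and in neither list for Rarb. For Rara the gene-end peak lay at the 3′ end, and for Rarb the peak on the start region lay 144 kb from the nearest gene end. Counted per gene, none of the 6 had gene-end peaks in Gata2cKO and none in Gata2WT (1.3% of coding genes), or the reverse (2.29%). Single gene-end peaks were still found in 1 list alone, at Rarg, Rxrb and Rxrg.

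Rara, which encodes the RAR found in most tissues, spans 98927800 to 98974942 on chromosome 11 and had 7 peaks in each list, 6 of them shared. Its strongest peak lay on the pair of start sites at 98937696 and 98937718. It spanned 98937160 to 98938317 in Gata2cKO with a −log10 q of 20.4 and 54 fragments, and 98937100 to 98938483 in Gata2WT with 28.3 and 73 fragments. A second strong site stood inside the gene, with its Gata2cKO summit 2.47 kb past the third listed start, at 98939711. Its −log10 q was 20.3 in Gata2cKO and 25.8 in Gata2WT. Another, 98963529 to 98964095 in Gata2cKO, ended 527 bp short of the region of the last start, with a −log10 q of 19.2 in Gata2cKO and 14.8 in Gata2WT. The values at 98959632 to 98960343 in Gata2cKO were 6.31 and 30 fragments in Gata2cKO, and 13.6 and 43 fragments in Gata2WT. The site nearest the 3′ end within the gene, 98972358 to 98972629 in Gata2cKO, was weak, with 2.81 in Gata2cKO and 5.71 in Gata2WT. In both lists the strongest peak and the second strong site were also assigned to another coding gene, Gm46294. They cannot be given to Rara alone.

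Rara also had single-list sites on both sides. The Gata2cKO list alone held 98954588 to 98955032, also assigned to Gm46294. It had a −log10 q of 8.25 and 23 fragments on a local background of 4.14. The Gata2WT list alone held 98962718 to 98963067, with a −log10 q of 2.54 and 24 fragments on a local background of 9.58. The pileups of these sites were alike, and the site with the lower −log10 q had the higher local background. The peak at the 3′ end, 98975085 to 98975514 in Gata2cKO, occurred in both lists, at a −log10 q of 5.24 in Gata2cKO and 5.27 in Gata2WT.

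Rarb, which retinoic acid itself switches on through an element at its promoter, was the gene with the fewest peaks for its length. It covers 651493 bp, from 16430839 to 17082331 on chromosome 14, and within 1 kb of its body it had 0.918 peaks per 100 kb in Gata2cKO and 1.22 in Gata2WT. The corresponding densities over all coding genes were 3.07 in Gata2cKO and 3.37 in Gata2WT. All 7 of its Gata2cKO peaks were shared, and 2 of its 9 Gata2WT peaks were in that list alone.

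The strongest Rarb peak covered the start region printed above. It spanned 16575004 to 16576062 in Gata2cKO with a −log10 q of 30.4, a fold enrichment of 8.96 and 49 fragments, and 16574985 to 16575924 in Gata2WT with 41.0, 8.77 and 69 fragments. Its summit lay at position -231 from the start site in Gata2cKO and -171 in Gata2WT. Inside both peaks, at positions -53 to -37 (16575513 to 16575529), the half-site GGTTCA and, after it, the half-site AGTTCA stand in the same direction with 5 bases between them, the DR5 form of a response element. A DR5 of the searched half-sites was found in 17 of 21045 coding start regions (0.0808%), and 5 of the 17 carried a peak in both lists, 1 in Gata2cKO alone and 11 in neither. Among the 5 was also Cyp26a1, which encodes a retinoic acid-degrading enzyme and is a known retinoic acid target. Of the 13 receptor gene start regions, that of Rarb alone held a DR5, and none held half-sites spaced by 1 base (DR1, in 0.185% of coding start regions) or by 2 bases (DR2, 0.0903%). A match is a description of the letters and no evidence of binding.

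Away from its start, Rarb had 1 distal site nearly as strong. This site lay 89.8 kb before the annotated 5′ end of the gene in Gata2cKO, at 17172084 to 17173188, with a −log10 q of 24.7 and 39 fragments, and at 17172067 to 17173040 in Gata2WT with 37.7 and 55 fragments. The summits were 4 bp apart, both at -597 kb from the start site of the region printed above. The link of this site to Rarb rests only on the nearest end of a coding gene. A site 17.6 kb from the 3′ end of the gene, 16448443 to 16449144 in Gata2cKO, had a −log10 q of 16.5 in Gata2cKO and 14.4 in Gata2WT. The other 4 shared sites were weak, from 2.88 to 4.38 in Gata2cKO and from 4.05 to 7.31 in Gata2WT. The sites in the Gata2WT list alone, 16447509 to 16447779 and 16500708 to 16501044, had a −log10 q of 3.68 and 1.97, with 14 and 9 fragments.

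Rarg, an RAR gene known for protein forms that differ in their first part and come from separate promoters, spans 102234938 to 102257522 on chromosome 15 and had 4 Gata2cKO peaks and 3 Gata2WT peaks, of which 2 in each were shared. The strong one lay on the inner start region printed above. It spanned 102246442 to 102247638 in Gata2cKO with a −log10 q of 21.3 and 50 fragments, and 102246161 to 102247808 in Gata2WT with 26.3 and 60 fragments. Its summits were 4 bp apart, at position -266 in Gata2cKO and -270 in Gata2WT. This region held the one GATA word of the 13 receptor gene start regions (AGATAA, positions -146 to -141), inside the peak of both lists. GATA words were found in 25.8% of coding start regions.

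The outer start of Rarg had no peak on its region, with a gap of 61 bp to the nearest Gata2cKO peak and of 253 bp to the nearest Gata2WT peak. The shared peak beside it was the weakest receptor gene peak in the Gata2cKO list, with a −log10 q of 1.62 and 11 fragments there, and 3.03 and 13 fragments in Gata2WT. On the outer side, 102258025 to 102258358 appeared only in Gata2WT, with 2.55 and 12 fragments. The Gata2cKO list alone held sites toward the 3′ end, a gene-end peak at 102235443 to 102235995 with a −log10 q of 4.96 and 19 fragments and an inner peak at 102239249 to 102239581 with 3.86 and 17 fragments. Rarg thus had single-list peaks at both of its ends, in Gata2cKO at the 3′ end and in Gata2WT before the outer start.

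Rxra, the broadly expressed RXR gene, had the most sites in Gata2cKO, 10, and 9 in Gata2WT, as many as Rarb. Of the Rxra sites, 8 were shared in each list. It spans 27676445 to 27763319 on chromosome 2. Its first start region lay in a gap between a pair of shared peaks, 21 bp from the nearest Gata2cKO peak and 92 bp from the nearest Gata2WT peak. The peak before the gap, 27676100 to 27676930 in Gata2cKO, had a −log10 q of 4.84 and 21 fragments in Gata2cKO, and 15.3 and 39 fragments in Gata2WT. The peak after the gap, 27677597 to 27678009 in Gata2cKO, had 7.04 and 24 fragments in Gata2cKO, and 24.2 and 50 fragments in Gata2WT. The local background before the gap was 5.42 fragments in Gata2cKO and 6.62 in Gata2WT, and after it 5.21 in Gata2cKO and 6.69 in Gata2WT. These values are not scaled between the lists and carry no replicate error.

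Elsewhere at Rxra the shared sites had closer values. A site deep inside the gene, 27739499 to 27740717 in Gata2cKO and its strongest in that list, had a −log10 q of 14.4 with 33 fragments in Gata2cKO, and 15.7 with 34 fragments in Gata2WT. A site past the 3′ end, 27764710 to 27765385 in Gata2cKO, had 13.3 in Gata2cKO and 12.8 in Gata2WT, with 29 fragments in each. The edge of this peak lay 1.39 kb from the gene in Gata2cKO and 0.944 kb in Gata2WT, so only the Gata2WT one counted as a gene-end peak although the summits were 14 bp apart. The remaining 4 shared sites had a −log10 q of 2.84 to 5.54 in Gata2cKO and of 2.88 to 4.59 in Gata2WT.

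Rxra carried the strongest single-list site of all 6 genes. It lay inside the gene at 27721086 to 27721655, in the Gata2cKO list alone, with a −log10 q of 11.8, a fold enrichment of 5.63 and 27 fragments on a local background of 3.97. Of the 18072 Gata2cKO peaks whose −log10 q reached 10, 0.802% were in that list alone, and of the 11 receptor gene peaks at that level this was the only one. A second Gata2cKO site, 27649849 to 27650127, lay 26.3 kb before the gene with 5.76 and 16 fragments. The Gata2WT list alone held 27699523 to 27699944, inside the gene, with 5.30 and 16 fragments.

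Rxrb, a short gene of 6592 bp at 34031812 to 34038403 on chromosome 17, had a single strong site. It covered both start regions and spanned 34031423 to 34032552 in Gata2cKO with a −log10 q of 36.2 and 94 fragments, and 34031393 to 34032419 in Gata2WT with 39.1 and 104 fragments. This was the highest pileup of any receptor gene peak in either list, and it stood on the highest local background, 16.6 fragments in Gata2cKO and 18.9 in Gata2WT. The peak also lay within 1 kb of the neighbouring gene Slc39a7, so it cannot be given to Rxrb alone. The start regions had 37 and 47 CpG, and coding start regions with 20 or more CpG carried a peak in 95.1% of cases in Gata2cKO and 95% in Gata2WT. At the other end, 34039007 to 34039343 appeared only in Gata2WT, at a −log10 q of 3.93 and 19 fragments, and this site lay within 1 kb of Col11a2 as well.

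Rxrg, which in many tissues is the most restricted of the RXR genes, spans 167598362 to 167639623 on chromosome 1. Of its 4 Gata2cKO peaks 1 was in that list alone (25.0%, 4.56 to 69.9), and of its 7 Gata2WT peaks 4 were (57.1%, 25.0 to 84.2). Both intervals cover the shares over all peaks, 19.7% in Gata2cKO and 28.5% in Gata2WT. The 3 shared sites all lay at or before the first start. The start peak spanned 167598158 to 167598924 in Gata2cKO with a −log10 q of 9.40 and 19 fragments, and 167598220 to 167598867 in Gata2WT with 7.83 and 18 fragments. A site 14.3 kb before the gene in Gata2cKO had 8.80 and 18 fragments in Gata2cKO, and 10.0 and 19 fragments in Gata2WT.

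Downstream of the first start, no Rxrg site was shared. The Gata2cKO list alone held 167599316 to 167599667, close behind the start peak, with a −log10 q of 3.12 and 11 fragments. The Gata2WT list alone held 4 sites, of which the first, 167618115 to 167618476, lay on the second start region with its summit at position 94 after the start, a −log10 q of 4.20 and 13 fragments. The nearest Gata2cKO peak to this region was 18348 bp away. The next, 167620385 to 167620712, had 2.59 and 11 fragments, and those beyond the 3′ end, 167644947 to 167645331 and 167660693 to 167660963, had 4.37 and 1.97 with 13 and 9 fragments. The second start region had 9 CpG and 2 half-sites, 1 of them inside the Gata2WT peak. Half-sites were found in 41.2% of coding start regions. With no peak in either list, the third Rara start region held 4 and the second Rxra start region 3. The Rarb region, with a peak in both, also held 3. At the genome background of 2.19 fragments 8 can pass the threshold, and more are needed where the background is higher. All 4 Gata2WT-only sites of Rxrg had 9 to 13 fragments, on local backgrounds of 2.19 to 2.64. Their −log10 q was under 6, where 54.9% of all Gata2WT peaks were in that list alone. Counting peaks from a −log10 q of 5 up, Rxrg had 0 single-list sites.

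**Figure D2:**
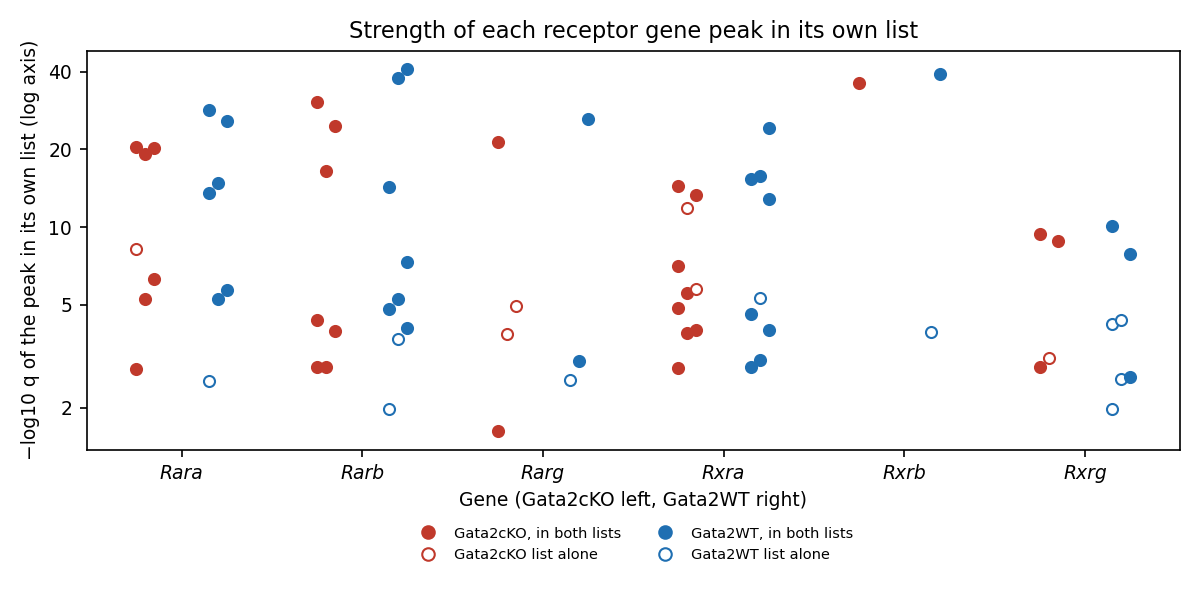
The −log10 q of every receptor gene peak in its own list (log axis), by gene, with Gata2cKO in red on the left and Gata2WT in blue on the right; filled points are shared and open points are found in 1 list alone. Open points in blue reach 5.30 and those in red reach 11.8, at Rxra, while the filled points reach 36.2 in Gata2cKO and 41.0 in Gata2WT.

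The single-list sites of the receptor genes were set beside the shared sites of their own list. The values are not scaled between the lists, so no difference between genotypes is read from them. The 6 sites in Gata2cKO alone had a −log10 q of 3.12 to 11.8 with a median of 5.36 and 18 fragments, close to the medians of 6.31 and 19 fragments at the shared sites in that list. The 10 in Gata2WT alone had 1.97 to 5.30 with a median of 3.13 and 13 fragments, below the medians of 10.0 and 21 fragments at the shared sites in that list. Over all single-list peaks the median −log10 q was 2.88 in Gata2cKO and 2.84 in Gata2WT, with 11 fragments in both. Of the receptor gene peaks with a −log10 q under 6, 4 of 17 were in the Gata2cKO list alone, where the share of all such peaks was 40.7%, and 10 of 21 were in the Gata2WT list alone, where it was 54.9%. From 6 to 10, 1 of 5 was in Gata2cKO alone (9.55% of all) and 0 of 2 in Gata2WT alone (17.2%). At 10 and above, 1 of 11 was in Gata2cKO alone, and 0 of 14 in Gata2WT alone (1.3%), all 14 being shared.

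By place, single-list peaks made up 2 of 7 gene-end peaks in Gata2cKO (28.6%, 8.22 to 64.1) and 2 of 8 in Gata2WT (25.0%, 7.15 to 59.1). Over all genes the shares were 4.47% and 6.68%, below these intervals, which cover counting error only. The 4 sites belonged to Rarg (1 in each list), Rxrb in Gata2WT and Rxrg in Gata2cKO. Their −log10 q was 2.55 to 4.96, and the Rxrb site and the Gata2cKO site of Rarg lay at the 3′ end. Inside genes the receptor counts were 3 of 18 in Gata2cKO and 6 of 21 in Gata2WT, against 27% and 37.5% over all genes. Outside genes they were 1 of 8 in Gata2cKO and 2 of 8 in Gata2WT, against 25.3% and 35.2%.

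**Figure D3:**
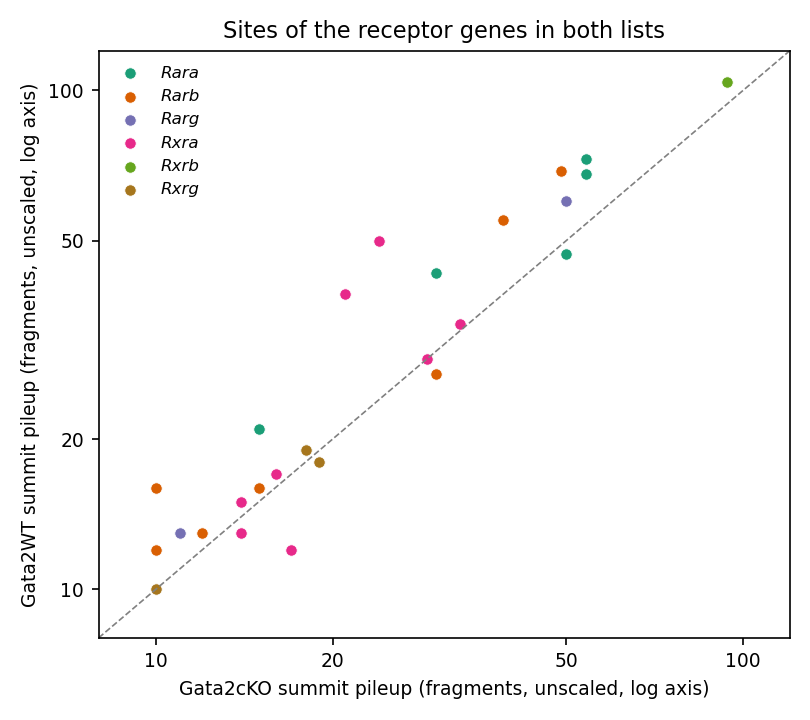
Summit pileup in fragments at the 27 shared sites of the receptor genes, Gata2cKO on the x axis and Gata2WT on the y axis (both log), colored by gene, with a dashed line of equal values. The values are not scaled between the lists; the points farthest above the line are the pair beside the first start of Rxra, with 21 and 24 fragments in Gata2cKO and 39 and 50 in Gata2WT, and the Rarb site with 10 in Gata2cKO and 16 in Gata2WT.

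Set beside the other 43 genes of the nuclear receptor family, the 6 genes had more peaks per gene and a similar split. The median was 5.5 peaks per gene in Gata2cKO and 7 in Gata2WT, against 3 in each list for the other nuclear receptors. Of the peaks of those 43 genes, 22 of 161 were in the Gata2cKO list alone (13.7%, 9.20 to 19.8) and 51 of 187 in the Gata2WT list alone (27.3%, 21.4 to 34.1). The shares of the 6 genes, 18.2% and 27.0%, lay inside these intervals. Each of the 6 genes had at least 1 single-list peak, while 17 of the 43 had none, and 6 of the 43 had 4 or more Gata2WT-only peaks, as Rxrg did. Gata2cKO-only peaks were found at 4 of the 6 and at 26.2% of all coding genes. Gata2WT-only peaks were found at all 6 and at 35.1% of all coding genes. The 6 genes also had more peaks each, and the part of this in these counts was not tested. From a −log10 q of 5 up, Rarb, Rarg, Rxrb and Rxrg had 0 single-list peaks. Gene-end status differed between the lists at 4 of the 43, all with the peak in Gata2WT alone.

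Likeness was measured as the sum of absolute differences in 3 counts, the Gata2cKO-only peaks, the Gata2WT-only peaks and the shared peaks as counted in the Gata2WT list. By that measure Nr2f2, an orphan receptor of stromal cells, stood nearest to Rarb with a difference of 0, although it had 8 shared peaks in the Gata2cKO list, where Rarb had 7. Hnf4a and Rorb had the same counts as Rxrb. A difference of 1 peak separated Esr1 and Ppard from Rxrg and Nr3c2 from Rarg. Nr1d1 and Nr2f1 were 2 peaks from Rara, and Ppara and Rora were 3 from Rxra.

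**Figure D4:**
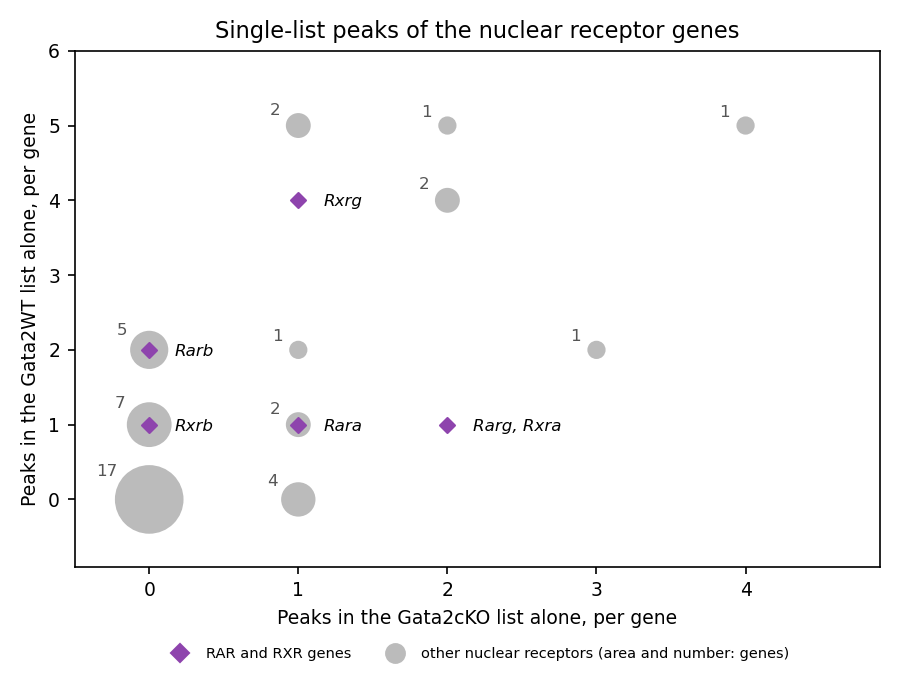
Peaks found in the Gata2cKO list alone (x axis) and in the Gata2WT list alone (y axis) per nuclear receptor gene; diamonds are the 6 receptor genes and grey circles the other 43, with their number beside each circle. Most of the 6 lie at 0 to 2 peaks on both axes, with Rxrg at 1 and 4, and 17 of the 43 lie at 0 and 0.

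Among the other 34 genes of the retinoic acid pathway, 22 of 120 Gata2cKO peaks were in that list alone (18.3%, 12.4 to 26.2) and 49 of 144 Gata2WT peaks were in that list alone (34.0%, 26.8 to 42.1). Both intervals cover the shares over all peaks, 19.7% in Gata2cKO and 28.5% in Gata2WT. Counted as peak and gene pairs, as here, all coding genes had 18.7% in Gata2cKO and 27.0% in Gata2WT. The latter lies close to the lower bound of the Gata2WT interval. Genes of ligand synthesis and transport had 2 of 19 in Gata2cKO alone, both at Rbp4, the blood carrier of retinol, and 8 of 25 in Gata2WT alone, with 3 at Aldh1a3, a retinaldehyde dehydrogenase, and 2 at Dhrs3, a retinaldehyde reductase. The CYP26 enzymes, which break retinoic acid down, had 1 of 11 in Gata2cKO alone, at Cyp26a1, and 2 of 12 in Gata2WT alone, at Cyp26b1. The intracellular carriers had 2 of 13 in Gata2cKO alone, both at Crabp2, and 4 of 15 in Gata2WT alone, with 2 each at Crabp1 and Fabp5.

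The cofactors that RAR-RXR pairs recruit held 16 of the 22 single-list peaks of the pathway in Gata2cKO and 30 of the 49 in Gata2WT, and also 65 of its 120 peaks in Gata2cKO and 76 of its 144 in Gata2WT. Corepressor genes had 7 of 36 in Gata2cKO alone and 18 of 44 in Gata2WT alone. Within these, Nrip1 had 1 in Gata2cKO alone and 5 in Gata2WT alone, and Ncor1 had 2 in Gata2cKO and 3 in Gata2WT. Coactivator genes had 9 of 29 in Gata2cKO alone and 12 of 32 in Gata2WT alone, with 4 in Gata2cKO and 7 in Gata2WT at Ncoa2, and 2 in each list at both Ncoa1 and Ncoa3. Of the target genes, Hoxb1 was the only pathway gene whose gene-end status differed, with no peak in Gata2cKO and 3 in Gata2WT. Across all coding genes, 2.29% differed in this direction. The gene-end status of Stra8 was the same under both genotypes, and its 1 Gata2cKO peak was shared. Stra8 also had 1 Gata2WT-only peak and none in Gata2cKO alone. A Gata2WT-only peak was found at 35.1% of all coding genes.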

How the data were processed

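ATAC-seq was run on 2 Gata2cKO and 2 Gata2WT libraries, and the authors deposited 1 narrow peak list per genotype with the replicates combined in a way the labels do not describe. The submitters' processing notes name the peak caller MACS2 (2.2.6), the aligner Bowtie2 (2.3.5.1), bedtools (2.29.2), Trimmomatic (0.39), Picard (2.23.0) and SAMtools, with the build GRCm38 (mm10). Settings, including any shift of reads for the transposase, were not stated. The deposited fold enrichment is a ratio of summit pileup to local background, the deposited −log10 p and −log10 q come from the peak caller, and the deposited score is derived from the −log10 p; none is scaled between the lists, so they are set side by side without reading a change.

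Deposited rows with the same interval were joined into 1 peak represented by the summit with the lowest p, on the 19 autosomes and X. Pileup and local background were solved from fold and −log10 p, giving a whole pileup within 0.001 for 99.9955% of Gata2cKO and 99.996% of Gata2WT peaks. A fragment is whatever unit the peak caller stacked, and the number of reads per library is not known here. Peaks sharing at least 1 bp counted as shared, by a script whose counts were checked against bedtools 2.31.1. Gene spans and start regions came from RefSeq tables of GRCm38.p6, with 13 start regions for the 6 genes. The pileup solution, the overlaps and the assignment of peaks to genes were tested on simulated data.

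Every receptor gene peak was counted, and those at a gene end, in 1 list or among the 3 strongest of a gene were to be named; pathway genes were named where gene-end status differed, and otherwise up to 3 per role by single-list peaks, of which some are not reported here. The members and lists were chosen with earlier results of these data known. Alternatives covered overlap, threshold, list length, merging of rows, distance and competing genes.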

Additional observations from a re-analysis of the deposited data

How the results depend on the processing

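The count of receptor gene peaks in 1 list alone depended most on the peak threshold. With only peaks of a −log10 q of at least 5 in their own list, 3 peaks of 19 remained in Gata2cKO alone and 1 of 20 in Gata2WT alone, against 6 and 10 as reported, since weak peaks no longer counted. The higher share then lay in Gata2cKO, 15.8% against 5% in Gata2WT, but these shares rest on 3 peaks and 1 peak. Under 7 other alternatives the counts ran from 5 to 7 in Gata2cKO alone and from 8 to 11 in Gata2WT alone. Shortening the Gata2WT list to the length of the Gata2cKO list removed none of its 37 receptor gene peaks, so that alternative could not move any count and says nothing about stability. For single genes, the total of both lists moved by more than 1.5 times in 7 of 54 cases: at a −log10 q of at least 2, Rarb had 1; at 5, Rara had 1 and Rarb, Rarg, Rxrb and Rxrg had 0; and with peaks near the gene body alone, Rxrg had 3. Gene-end peaks in both lists stayed at 5 of 6 genes under 3 further alternatives, and start regions with a peak in both lists at 7 of 13 under 2 alternatives chosen after the data were seen. The gene-end count takes a peak at either end and needs no overlap. At a −log10 q of at least 2, Rarg counted through a Gata2cKO peak at its 3′ end and Gata2WT peaks at its other end. No paired analysis was possible because the replicates are combined in the deposited lists, which also kept each replicate from being left out in turn. Depth limits what the lists show: the sites in Gata2cKO alone had 11 to 27 fragments and those in Gata2WT alone 9 to 24. At the genome background 8 can pass, and a site on a higher local background needs more. How far such counts vary between libraries was not tested.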
